A study of Homo sapiens with 6 samples.

Results

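Solute carriers (SLC) are membrane proteins, grouped into numbered families by sequence, that move amino acids, sugars, metal ions, nucleotides, lipids and inorganic ions across the plasma membrane and the membranes of mitochondria, lysosomes and other organelles. Some exchange 1 substrate for another, others use the sodium or proton gradient, and a growing cell depends on them for nutrients. Maturing myeloid cells carry carriers of their own in the phagosome and lysosome, where they handle metals and peptides. The genes described here were chosen by symbol and level. They are those whose symbol in the platform annotation is SLC followed by a digit, without antisense and pseudogene symbols and without the glucose carriers SLC2A1 and SLC2A3 and the cystine carrier SLC7A11. Each was represented by its probe set of highest mean among those annotated to 1 gene, and was kept when its highest value over the 6 arrays reached 3.66, the median of all log2 values. This kept 250 of 343 solute carrier genes, where 13594 of 19775 genes in all were kept.

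The samples were 6 cultures of NB4, a human acute promyelocytic leukaemia line carrying the PML-RARA fusion, each hybridised to 1 Affymetrix expression array. One culture was untreated (0 h), and the others had been in all-trans retinoic acid (ATRA) at 1e-06 M for 4, 12, 24, 48 or 72 h. ATRA binds retinoic acid receptors and makes these cells mature toward neutrophils, and the time course asks how transcripts move as they do. No time had a replicate, hours of ATRA and hours of culture ran together, and every difference from untreated shares 1 untreated array. Values are log2 probe set levels, read here only along time within a probe set. A difference of 1 is 2-fold.

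The arrays carried the markers of the labelled cells. MPO, the myeloperoxidase of promyelocytes, was at 12.9 untreated and 10.9 at 72 h, while the granule proteins PRTN3 (10.8 and 11.1) and AZU1 (9.32 and 9.05) moved less. S100A8, a calcium-binding neutrophil protein, was at 3.90 and 13.1 at these times. All 5 promyelocyte markers and 4 neutrophil markers with a probe set were kept, and 0 of 5 monocyte and macrophage markers were, their highest level being 3.59. Of other cell types, 1 of 2 B cell markers was kept (CD79A, 5.36 untreated and 6.82 at 72 h), as were 2 of 2 for T cells, megakaryocytes and fibroblasts or epithelium (at most 4.07, 5.06 and 5.86). Their part in the results was not tested. Array medians lay between 3.64 and 3.69. The bioC spike-in control was on average at 8.06 on the 0 and 12 h arrays but at 7.04 on the 4, 24, 48 and 72 h arrays. The 28S ribosomal RNA 5' control read 6.77, 6.33, 10.3, 7.48, 9.51 and 9.63 from 0 to 72 h, and the 18S 3' control was highest at 12 h (9.98). What part these array differences have in the values below was not tested. Some carriers that follow the bioC division are pointed out, but not every carrier was checked for it.

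Carrier transcripts moved in both directions and mostly late. At 72 h 29 of the 250 (11.6%) were 2-fold or more higher than untreated and 33 (13.2%) 2-fold or more lower, beside 10.9% and 12.2% of all genes kept. These counts use values as deposited. With values below 3.66 set to it, 25 of the 29 were still 2-fold higher and 33 of the 33 lower. At 4 h 7 were higher and 6 lower (all genes 1.74% and 1.81%), at 12 h 5 and 6 (2.3% and 1.93%), at 24 h 7 and 8 (3.35% and 1.99%), and at 48 h 15 and 19 (5.83% and 4.49%). As shares of the 250 these were 2.8% and 2.4% at 4 h, 2% and 2.4% at 12 h, and 2.8% and 3.2% at 24 h. By 48 h they had come to 6% and 7.6%. The widest gap between carriers and all genes was on the lower side at 48 h, and it was not tested. The median carrier differed by -0.09 at 72 h, where the median of all genes was -0.06. At no time did 177 carriers (70.8%; all genes 74.8%) reach 2-fold. Among those higher at 72 h, 17 of 29 (58.6%; all genes 46.7%) first reached 2-fold there. Among those lower, 16 of 33 (48.5%; all genes 64.7%) did.

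**Figure D1:**
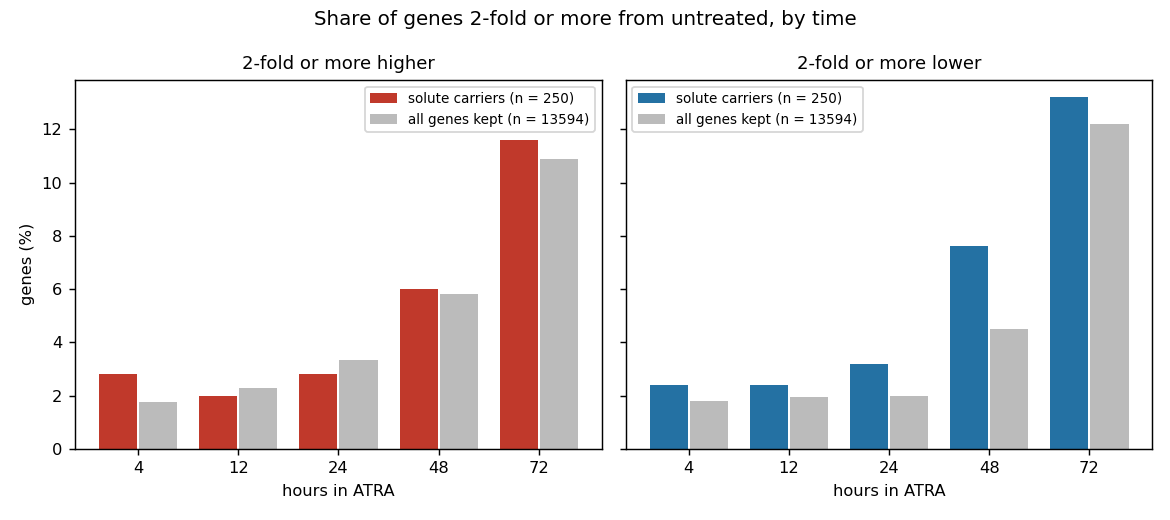
Share of genes (%) 2-fold or more higher (left) or lower (right) than untreated cells at each time in ATRA. Coloured bars are the 250 solute carriers and grey bars all 13594 genes kept. Both climb toward 72 h, where 11.6% of carriers were higher and 13.2% lower, against 10.9% and 12.2% of all genes. Each bar compares 1 array with 1 untreated array.

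The split of higher against lower carriers depends on the scaling. Setting the 18 hybridisation controls to an equal median adds 0.66 to every 72 h difference, which gives 55 higher and 18 lower carriers. Setting 14 of them, without bioC, to an equal mean takes away 0.56 and gives 14 higher and 69 lower. Changes are therefore given relative to the arrays' common level. Of the 250 carriers, 217 were at or above 3.66 on all 6 arrays, with 23 higher and 32 lower at 72 h. The other 33 passed on 1 to 5 arrays, 4 of them on the 72 h array alone, so some had to differ to be kept. Of these 33, 6 were higher and 1 lower.

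The main test was a straight line over time order (0 to 5), since single times have no replicate. limma called 17 carriers rising (6.8%) and 26 falling (10.4%) at an adjusted p under 0.05 over all 13594 genes, of which 8.33% rose and 9.86% fell. An unadjusted p under 0.05 was held by 73 carriers and by 4449 of all genes. Of the 29 carriers 2-fold higher at 72 h, 15 were called, and of the 33 lower, 21. The calls lean on the ends of the series. Without the 72 h array 8 rose and 13 fell (6 and 12 of those called with it), and without the untreated array 13 and 13. Within the 4, 24, 48 and 72 h arrays, which share a bioC level, 2 rose and 4 fell. After the shift on all controls SLC7A5 was the 1 falling call, with 20 rising. After the shift without bioC 9 rose and 54 fell. Of the 17 rising and 26 falling carriers, 5 and 10 were called whichever array was left out.

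The largest fall was that of SLC7A5 (LAT1), which exchanges leucine and other large neutral amino acids. Its level was 9.88 untreated and 9.31, 8.36, 8.22, 7.21 and 6.24 at 4 to 72 h, each array below the one before. That is 12.5-fold lower at 72 h, with a slope of -0.70 ± 0.06 (SE) per step (limma adjusted p = 0.000503). The largest rise was that of SLC44A1, a choline carrier, at 6.99 untreated and 7.32, 8.50, 9.28, 10.09 and 10.19 at 4 to 72 h. It was 9.16-fold higher at 72 h, with a slope of 0.72 ± 0.06 (SE) (limma adjusted p = 0.000774), and all 5 of its kept probe sets were higher at 72 h. Both were called with any 1 array left out. In bulk RNA, fewer cells with a transcript and less of it per cell cannot be told apart. The 2 courses differ in shape, since SLC44A1 levelled off after 48 h and SLC7A5 went on down.

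**Figure D2:**
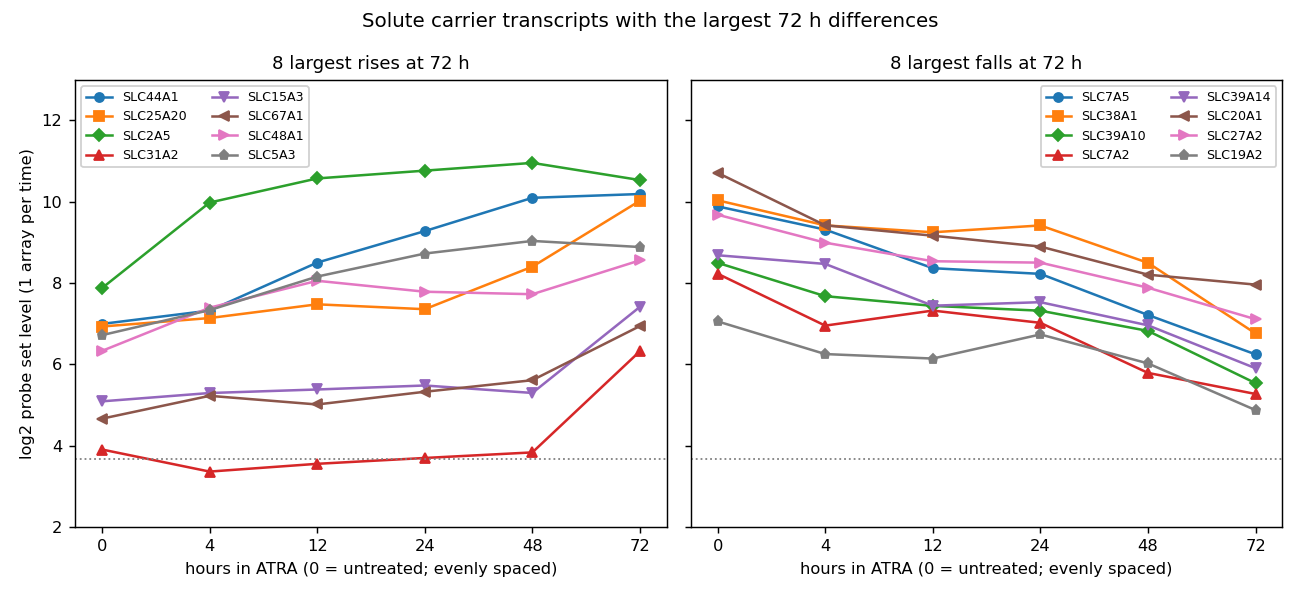
log2 level of the probe set of the 8 carriers with the largest rises (left) and falls (right) at 72 h, 1 array per time, with times evenly spaced and the dotted line at the filter, 3.66. Lines are to be read along time, not against each other. SLC2A5 was up by 4 h, SLC44A1 and SLC5A3 climbed to 48 h, and SLC31A2 and SLC15A3 stood apart at 72 h alone. On the right, SLC7A5, SLC20A1 and SLC39A10 go down at every step, while SLC38A1, SLC7A2 and SLC19A2 turn up again at 12 or 24 h before the drop to 72 h.

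Promoter sequence is shown for carriers of large change because members that moved together may be compared by what their start sites hold. RefSeq windows (GRCh38.p14, 250 bases before the start to 50 after it) were found for 209 of the 250 carriers, 300 windows in all, since a gene can have several starts. Motifs were searched on both strands, and a match is only a run of letters. CACGTG, the E-box that MYC with MAX and the TFEB family can bind, was in 12.3% of carrier windows and 7.26% of all 35114 windows. It was in 7 of 30 windows of falling carriers and in 3 of 23 of rising ones. Of carriers 2-fold off at 72 h, it was in 6 of 36 windows of lower and 3 of 35 of higher ones. TGATGNAA, the composite site through which ATF4 and C/EBP factors act in amino acid shortage, was in 5% and 3.62%. AGGTCA, the element that nuclear receptors bind singly or in repeats, was in 14% and 13.8%. It was in 5 of 23 windows of rising carriers, among them both windows of SLC67A1, and in 0 of 30 of falling ones. Of carriers 2-fold off at 72 h, it was in 4 of 35 windows of higher (11.4%) and 1 of 36 of lower ones. Differences between these sets were not tested. TGACNNNGC, the core of the antioxidant response element, was in 14.7% and 13.3%, and TTTCNNTTT, the core of the interferon response element, in 5.67% and 10.5%. The windows to choose from did not include SLC7A2, SLC39A14, SLC31A2 or SLC15A3, each with a larger change than some of those shown. From these windows, the 3 carriers with the largest falls and the 3 with the largest rises that had a match follow, with every match in capitals.
SLC7A5: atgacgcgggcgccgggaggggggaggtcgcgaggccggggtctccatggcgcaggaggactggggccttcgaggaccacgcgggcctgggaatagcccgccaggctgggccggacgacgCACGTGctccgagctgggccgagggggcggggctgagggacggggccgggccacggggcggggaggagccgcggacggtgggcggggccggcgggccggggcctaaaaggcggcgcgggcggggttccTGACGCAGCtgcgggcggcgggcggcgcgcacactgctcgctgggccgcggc
SLC38A1: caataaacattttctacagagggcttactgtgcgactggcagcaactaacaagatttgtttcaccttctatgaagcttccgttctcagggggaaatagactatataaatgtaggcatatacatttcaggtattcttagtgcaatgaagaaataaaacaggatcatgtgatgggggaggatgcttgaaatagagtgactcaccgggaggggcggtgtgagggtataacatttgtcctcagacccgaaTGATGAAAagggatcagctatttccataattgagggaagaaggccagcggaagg
SLC20A1: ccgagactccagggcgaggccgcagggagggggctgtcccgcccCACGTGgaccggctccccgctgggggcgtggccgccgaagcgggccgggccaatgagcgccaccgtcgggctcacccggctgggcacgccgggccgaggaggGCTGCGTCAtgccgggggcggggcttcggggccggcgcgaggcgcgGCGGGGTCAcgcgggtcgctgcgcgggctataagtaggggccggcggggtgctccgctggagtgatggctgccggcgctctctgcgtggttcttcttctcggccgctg
SLC2A5: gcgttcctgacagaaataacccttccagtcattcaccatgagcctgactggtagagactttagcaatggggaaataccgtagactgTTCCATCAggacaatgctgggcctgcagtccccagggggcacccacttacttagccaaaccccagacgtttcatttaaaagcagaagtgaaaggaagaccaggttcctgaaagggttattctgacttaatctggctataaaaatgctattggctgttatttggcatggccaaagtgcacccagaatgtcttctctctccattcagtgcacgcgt
SLC67A1: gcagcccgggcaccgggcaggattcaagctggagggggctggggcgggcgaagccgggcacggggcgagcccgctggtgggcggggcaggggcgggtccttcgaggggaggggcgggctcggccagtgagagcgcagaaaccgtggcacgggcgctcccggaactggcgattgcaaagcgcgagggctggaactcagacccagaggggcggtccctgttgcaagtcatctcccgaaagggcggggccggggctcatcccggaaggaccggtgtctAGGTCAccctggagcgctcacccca
SLC7A7: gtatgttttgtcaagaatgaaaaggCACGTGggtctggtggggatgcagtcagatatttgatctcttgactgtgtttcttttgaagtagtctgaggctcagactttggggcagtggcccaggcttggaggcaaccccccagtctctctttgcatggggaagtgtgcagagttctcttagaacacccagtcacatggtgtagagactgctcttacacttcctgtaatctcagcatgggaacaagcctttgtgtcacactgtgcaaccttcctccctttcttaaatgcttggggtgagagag
In the SLC7A5 window (chr16:87869458-87869757, minus strand) CACGTG lies 130 to 125 bases before the start and a TGACNNNGC match spans the start itself. The SLC38A1 window (chr12:46266467-46266766, minus strand), 1 of 2 for that gene, has a TGATGNAA match across the start. SLC20A1 (chr2:112645689-112645988, plus strand) has CACGTG 206 to 201 bases before the start and 2 TGACNNNGC matches on the other strand. On the rising side, SLC2A5 (chr1:9069586-9069885, minus strand) has a TGATGNAA match on the other strand 164 to 157 bases before the start. SLC67A1 (chr11:2902028-2902327, plus strand), 1 of 2 windows for that gene, has AGGTCA 26 to 31 bases after the start. SLC7A7 (chr14:22815822-22816121, minus strand), 1 of 3 windows, has CACGTG 225 to 220 bases before the start. The same letters were found at 2 of the 3 falling genes shown.

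Among amino acid carriers, 42 kept, those that fell were SLC7A5, SLC38A1, SLC7A2 and SLC1A4. At 72 h 4 were higher and 6 lower, 3 rose and 4 fell in the trend test, and the median was -0.12 (0.54 with the shift on all controls). SLC38A1 (SNAT1), which imports glutamine with sodium, stood at 10.03 untreated and 9.42, 9.25, 9.41, 8.49 and 6.76 at 4 to 72 h. It was within 2-fold of untreated to 24 h, dropped after that, and was 9.69-fold lower at 72 h (limma adjusted p = 0.0164). This was seen in 3 of 4 kept probe sets, the other differing by 0.08 at a level near the filter, and the mean of all 4 differed by -1.96. SLC7A2 (CAT2), an arginine carrier, was at 8.23 untreated and 6.95, 7.32, 7.02, 5.79 and 5.27 at 4 to 72 h. It was already below untreated at 4 h (-1.28) and 7.78-fold lower at 72 h (limma adjusted p = 0.00734). The mean of its 3 probe sets, of which 1 was kept, differed by -1.34. SLC1A4 (ASCT1), a carrier of small neutral amino acids, was at 7.09 untreated and 5.86, 5.40, 5.09, 5.09 and 5.05 at 4 to 72 h. Its fall was done by 24 h and came to 4.13-fold (limma adjusted p = 0.0231). This probe set is prone to cross-hybridisation. The next in mean level differed by -0.67, and 2 further kept ones by -2.36 and -1.62.

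Partners and relatives of these carriers ended closer to untreated. SLC3A2, the heavy chain that SLC7A5 and SLC7A7 need to reach the membrane, was at 8.96 untreated and 8.42, 8.14, 8.13, 7.78 and 8.60 at 4 to 72 h. It was lowest at 48 h (-1.18) and near untreated again at 72 h (-0.35), with no call (limma adjusted p = 0.413). SLC1A5 (ASCT2), a glutamine exchanger, differed by -0.83 at 72 h. Of the amino acid carriers that rose, SLC43A2 (LAT4), which lets branched-chain amino acids pass, was at 5.02 untreated and 5.95, 6.26, 5.85, 6.34 and 6.97 at 4 to 72 h, 3.86-fold higher at 72 h (limma adjusted p = 0.0254). SLC36A1, which exports amino acids from the lysosome, climbed through 6.26 untreated and 6.28, 6.52, 6.76, 7.06 and 7.17 at 4 to 72 h (limma adjusted p = 0.0162). Its second kept probe set was lower by 0.08 and near the filter. SLC6A6, the taurine carrier, was the third to rise and differed by 1.33.

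SLC7A7 (y+LAT1), an exchanger of cationic for neutral amino acids, was at 4.27 untreated and 4.58, 4.22, 4.25, 4.25 and 6.43 at 4 to 72 h. The 72 h array alone stands apart, at 4.46-fold higher, and the trend was not called (limma adjusted p = 0.197). SLC7A5 and SLC7A7 thus ended on opposite sides of untreated, while the heavy chain they share was within 1.28-fold of it. SLC6A8, the creatine carrier, passed 2-fold at 24 h (6.84 untreated and 6.93, 7.51, 8.09, 6.93 and 7.62 at 4 to 72 h) and was at 0.78 at 72 h, or at 0.04 once probe sets of the cross-hybridising x_at kind were left out.

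Metal ion carriers, 27 kept, had 1 higher and 5 lower at 72 h, and 0 rose and 4 fell. All 5 lower ones belong to SLC39, the ZIP family, which brings zinc and in part iron and manganese into the cytosol. Of 13 SLC39 genes kept 10 were below untreated at 72 h (76.9%, all genes 54.7%), with a median of -0.75. With the shift on all controls 7 were below (53.8%, all genes 20.4%) and the median was -0.08. With that without bioC 11 were (84.6%, all genes 82.5%) and the median was -1.31. SLC39A10, a zinc importer of the plasma membrane, was at 8.50 untreated and 7.67, 7.44, 7.32, 6.82 and 5.53 at 4 to 72 h. Each array is below the one before, ending 7.79-fold lower (limma adjusted p = 0.00516). SLC39A14 (ZIP14), which also carries iron that is not bound to transferrin, was at 8.68 untreated and 8.47, 7.44, 7.53, 6.96 and 5.90 at 4 to 72 h, 6.87-fold lower at 72 h (limma adjusted p = 0.00318). Its step came between 4 and 12 h and again after 24 h, and the mean of its 3 probe sets, 2 of them kept, differed by -1.54.

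SLC39A8 (ZIP8), a close relative that carries zinc and manganese, was at 9.18 untreated and 9.05, 8.47, 8.64, 8.37 and 7.80 at 4 to 72 h. It fell to 2.59-fold lower (limma adjusted p = 0.0157), in all 4 kept probe sets, with -0.71 as the mean of all 6. SLC39A3 was the fourth to fall and differed by -1.64. SLC39A4, the intestinal zinc importer, was at 7.73 untreated and 7.77, 6.97, 7.51, 7.34 and 6.06 at 4 to 72 h and differed by -1.67 without a call (limma adjusted p = 0.0823). SLC39A14 and SLC39A10 were called with any array left out.

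Of the zinc exporters of SLC30, 7 kept, 0 were 2-fold off at any time, and their median at 72 h was -0.18 (0.48 with the shift on all controls). SLC30A1, the zinc exporter of the plasma membrane, was at 8.38 untreated and 8.65, 7.51, 8.08, 8.33 and 9.05 at 4 to 72 h, lowest at 12 h and highest at 72 h. Of 8 kept genes for metallothioneins, which bind zinc and copper, and MTF1, the zinc-sensing factor that drives them, 4 lay 2-fold or more above untreated at 72 h and 0 below (7 above with cyclic loess or the shift on all controls, 1 with that without bioC). MTF1 rose, from 5.81 to 8.48 (limma adjusted p = 0.025), and 0 metallothioneins were called. MT1X, at -0.89 at 48 h and 1.17 at 72 h, and MT2A, at -0.85 and 1.23, were below untreated and then above it. SLC39A10 and SLC39A14, in contrast, were below untreated from 12 h on without a return.

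**Figure D3:**
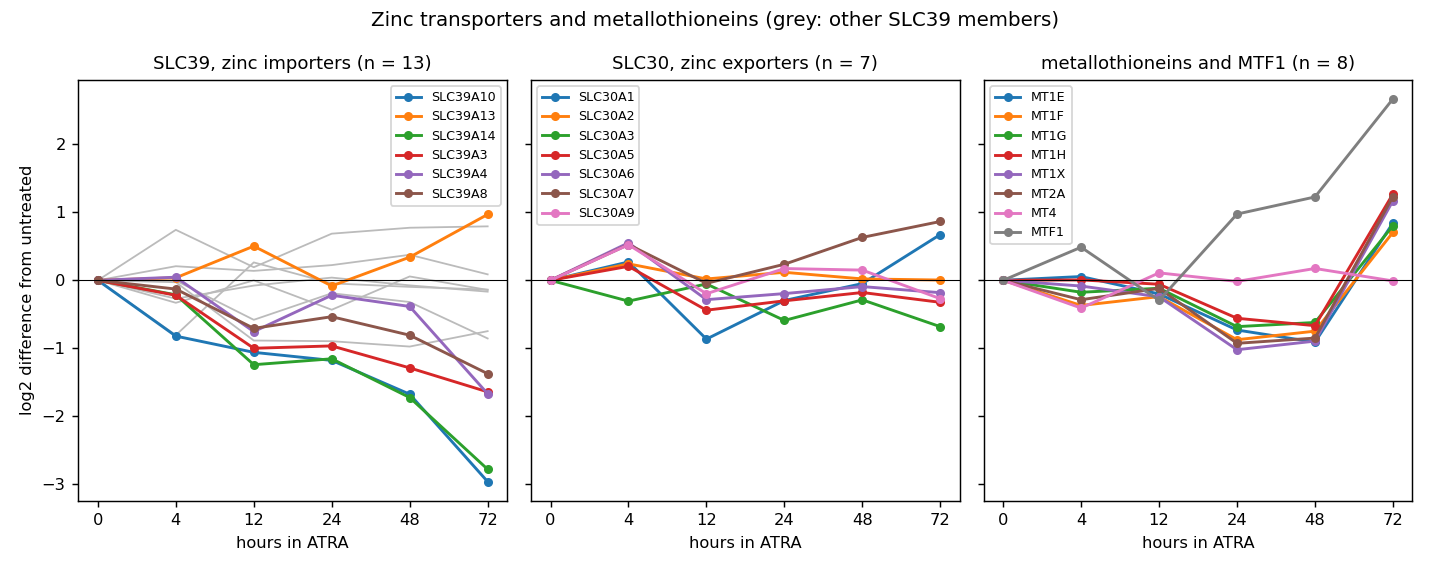
log2 difference from untreated of the 13 kept SLC39 genes (left; the 6 with the largest 72 h differences in colour, the others grey), the 7 kept SLC30 genes (middle) and 8 genes of metallothioneins and MTF1 (right), at evenly spaced times, 1 array each. SLC39A10 and SLC39A14 go down to -2.96 and -2.78, SLC30 stays within 2-fold, and 6 metallothioneins dip at 24 and 48 h and end above untreated.

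None of the iron and copper carriers of SLC11, SLC31 and SLC40 was called. SLC11A1 (NRAMP1), the phagosomal metal carrier of myeloid cells, was at 6.31 untreated and 6.36, 6.77, 6.42, 6.39 and 6.26 at 4 to 72 h. Its 6 arrays span less than 2-fold and the 72 h difference was -0.05. SLC11A2 (DMT1), the ferrous iron importer, differed by -0.38, and SLC40A1 (ferroportin), the iron exporter, by -0.40, neither called. SLC31A2, a relative of the copper importer CTR1, was at 3.90 untreated and 3.36, 3.55, 3.69, 3.83 and 6.32 at 4 to 72 h. It stayed near the filter to 48 h and was 5.35-fold higher on the 72 h array (limma adjusted p = 0.131). Of 11 other iron handling genes kept, 1 was higher and 3 lower at 72 h, and 2 rose and 1 fell. TFRC, the transferrin receptor, fell (-1.15, limma adjusted p = 0.014), and FTL, the ferritin light chain, rose (0.74, limma adjusted p = 0.008). HMOX1, which breaks down haem, was at 2.95, also on the 72 h array alone.

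Mitochondrial carriers (SLC25), 40 of the 250 kept, held both the second largest rise of any carrier and 8 of the 26 falling calls. At 72 h 6 were higher and 6 lower (all genes 10.9% and 12.2%). In the trend test 4 rose and 8 fell (all genes 8.33% and 9.86%). The median was -0.17, and 0.49 with the shift on all controls. With that shift SLC7A5 was the only carrier called falling, so none of these 8 calls remained. SLC25A20, which takes acylcarnitines into mitochondria for fatty acid oxidation, was at 6.93 untreated and 7.14, 7.47, 7.35, 8.40 and 10.02 at 4 to 72 h. Most of the rise came after 24 h and reached 8.55-fold (limma adjusted p = 0.0161). SLC25A51, the mitochondrial NAD carrier, rose step by step through 4.56 untreated and 4.91, 5.18, 5.48, 5.74 and 6.20 at 4 to 72 h, 3.11-fold in all (limma adjusted p = 0.00252). SLC25A40, linked to mitochondrial glutathione, was at 7.85 untreated and 7.71, 8.26, 8.39, 9.14 and 9.46 at 4 to 72 h, 3.05-fold higher (limma adjusted p = 0.00649). SLC25A45 went from 3.18 to 4.66, a lower bound of 1.999-fold, just under 2-fold, because it started below the filter (limma adjusted p = 0.00734).

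Among the falling mitochondrial carriers, SLC25A15, the ornithine carrier of the urea cycle, was at 7.95 untreated and 7.97, 7.70, 7.61, 6.83 and 5.95 at 4 to 72 h. It stayed near untreated to 24 h and was 4.01-fold lower at 72 h (limma adjusted p = 0.0137). SLC25A43 was at 7.30 untreated and 7.09, 6.55, 6.55, 6.53 and 5.28 at 4 to 72 h, 4.06-fold lower (limma adjusted p = 0.0176). The other 6 that fell, named after their values were seen to complete the count, were SLC25A32 (-1.32), SLC25A17 (-1.31), SLC25A26 (-1.04), SLC25A38 (-0.90), SLC25A13 (-0.86) and SLC25A33 (-0.75). They include the mitochondrial importers of folate (SLC25A32), S-adenosylmethionine (SLC25A26), glycine (SLC25A38) and pyrimidine nucleotides (SLC25A33), and the aspartate-glutamate exchanger SLC25A13. SLC25A17 (PMP34) is a carrier of the peroxisomal membrane and is counted here by family number.

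The 2 mitoferrins, which bring iron into mitochondria, differed. SLC25A37 (mitoferrin-1) was at 7.90 untreated and 7.38, 7.29, 8.27, 7.86 and 7.48 at 4 to 72 h, with -0.42 at 72 h and 7 of 9 kept probe sets of that sign. SLC25A28 (mitoferrin-2) was at 7.51 untreated and 7.24, 7.21, 7.36, 7.58 and 8.94 at 4 to 72 h, within 1.23-fold of untreated to 48 h and then 2.69-fold higher. Neither was called. SLC25A44, a carrier of branched-chain amino acids, was at 6.73 untreated and 7.74, 6.78, 7.62, 7.74 and 7.83 at 4 to 72 h. It was near untreated at 12 h and about 2-fold higher at 4, 24, 48 and 72 h, the division of arrays that the bioC control also shows. SLC25A30 was lowest at 4 h (-0.92) and highest on the 0 and 12 h arrays (7.63 and 7.52), again the bioC division.

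Carriers of phosphate, sulfate, bicarbonate and protons, 29 kept, had 3 higher and 3 lower at 72 h, and 2 rose and 1 fell (median -0.05, and 0.62 with the shift on all controls). The 1 that fell was SLC20A1 (PiT1), which imports phosphate with sodium, at 10.71 untreated and 9.42, 9.16, 8.90, 8.20 and 7.96 at 4 to 72 h. Every array was below the one before, with -1.29 already at 4 h and 6.73-fold at 72 h (limma adjusted p = 0.00316), in both kept probe sets. SLC9A8, a sodium-proton exchanger of the Golgi and endosomes, was at 4.80 untreated and 4.93, 5.15, 5.48, 5.43 and 6.27 at 4 to 72 h and rose 2.76-fold (limma adjusted p = 0.0142). SLC4A7 (NBCn1), a bicarbonate importer, had the lowest 4 h difference of any carrier, with 6.30 untreated and 4.66, 6.06, 6.07, 5.65 and 4.92 at 4 to 72 h. It was low at 4 h (-1.64), back near untreated at 12 and 24 h and low again at 72 h (-1.38), so against the 4 h array the 72 h difference was 0.26. The mean of its 4 probe sets differed by -0.88 from untreated. SLC8B1, the mitochondrial sodium-calcium exchanger, was the other one to rise (0.96). SLC26A2, the sulfate carrier, differed by -1.15 without a call.

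Carriers of nucleosides, nucleotide sugars and vitamins, 37 kept, had 2 higher and 4 lower at 72 h, and 2 rose and 3 fell. Their median was -0.33, and 0.33 with the shift on all controls. SLC35F2 was at 8.77 untreated and 8.38, 8.19, 7.80, 7.42 and 6.82 at 4 to 72 h, lower on each array, and 3.87-fold at 72 h (limma adjusted p = 0.00276). The SLC37 genes are sugar phosphate carriers and are counted in this class by family number. SLC37A4, which takes glucose 6-phosphate into the endoplasmic reticulum, fell through 8.19 untreated and 8.14, 7.77, 7.73, 7.51 and 7.21 at 4 to 72 h (limma adjusted p = 0.0204). Its relative SLC37A1, a sugar phosphate exchanger of the same organelle, rose through 4.45 untreated and 5.33, 5.40, 5.60, 5.87 and 5.94 at 4 to 72 h (limma adjusted p = 0.0159). The mean of the 2 probe sets of SLC37A1, 1 of them kept, differed by 0.73 at 72 h. The vitamin carrier SLC19A2, for thiamine, was at 7.05 untreated and 6.25, 6.14, 6.73, 6.02 and 4.87 at 4 to 72 h. It was 4.54-fold lower at 72 h but just missed a call (limma adjusted p = 0.057). SLC19A1, the folate and methotrexate carrier, differed by -0.69. The third of the class to fall was SLC35G2 (-0.99).

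Of the equilibrative nucleoside carriers, through which drugs such as cytarabine enter cells, the lysosomal SLC29A3 rose and differed by 1.15 at 72 h. SLC29A1 (ENT1) was at 8.10 untreated and 8.27, 8.79, 8.50, 8.45 and 7.89 at 4 to 72 h, within 2-fold throughout. SLC29A2 (ENT2) was at 7.14 untreated and 6.29, 6.40, 7.13, 6.33 and 5.58 at 4 to 72 h, 2.95-fold lower at 72 h without a call, and 4 of its 5 kept probe sets had that sign, with a mean of -0.59. SLC35D1, which brings UDP-sugars into the endoplasmic reticulum, was 2-fold off at 4 h alone, at 6.54 untreated and 8.0, 6.63, 7.11, 6.90 and 5.97 at 4 to 72 h. The 21 kept genes of SLC35, the nucleotide sugar family, had 15 below untreated at 72 h (71.4%; all genes 54.7%) and a median of -0.32. With the shift on all controls 6 were below (28.6%, all genes 20.4%) and the median was 0.34. With that without bioC 21 were (100%, all genes 82.5%).

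Carriers of peptides, lipids, choline, haem and organic ions, 37 kept, had the most higher members, 8 against 5 lower at 72 h, with 3 rising and 4 falling. Their median was 0.09, and -0.48 with the shift without bioC. SLC48A1 (HRG1), which lets haem out of the phagolysosome, was at 6.33 untreated and 7.39, 8.05, 7.78, 7.72 and 8.56 at 4 to 72 h. It was 2-fold up at 4 h and 4.68-fold at 72 h (limma adjusted p = 0.0317), in all 3 kept probe sets. The 3 kept SLC15 genes are proton-coupled peptide carriers. SLC15A2 (PEPT2) was at 4.56 untreated and 4.34, 4.88, 5.13, 6.03 and 5.73 at 4 to 72 h and rose (limma adjusted p = 0.0148), with a 72 h difference of 0.76 as the mean of its 3 probe sets. SLC15A3, of the lysosome, was at 5.09 untreated and 5.29, 5.38, 5.48, 5.29 and 7.41 at 4 to 72 h, a 5.01-fold step on the last array (limma adjusted p = 0.0911). Its lysosomal relative SLC15A4 differed by -0.72 and was highest on the 0 and 12 h arrays (6.86 and 6.73), the division that the bioC control also shows. SLC49A4, also of the lysosomal membrane, was at 3.17 untreated and 3.28, 3.48, 3.42, 3.37 and 5.09 at 4 to 72 h, at least 2.68-fold higher at 72 h and on that array alone above the filter, though 1.0 on the log2 scale as the mean of its 2 probe sets.

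Fatty acid carriers of SLC27 couple uptake to activation with coenzyme A. Of only 5 kept, 3 were 2-fold lower and 1 higher at 72 h (all genes 12.2% and 10.9%). In all, 4 were below untreated (all genes 54.7%), with a median of -1.85. With the shift on all controls 3 were below (all genes 20.4%) and the median was -1.19. SLC27A2 was at 9.68 untreated and 8.99, 8.53, 8.50, 7.88 and 7.11 at 4 to 72 h, 5.94-fold lower at 72 h (limma adjusted p = 0.00229) in both kept probe sets. SLC27A5, known for activating bile acids in liver, was at 7.54 untreated and 7.24, 6.71, 6.80, 6.34 and 5.47 at 4 to 72 h, 4.21-fold lower (limma adjusted p = 0.00652), with a second, dimmer probe set at -0.08 and a mean of -1.08. SLC27A2 and SLC25A20, both of fatty acid use, thus went opposite ways. SLC22A15, an organic ion carrier, was at 7.90 untreated and 6.75, 6.92, 6.53, 6.34 and 6.15 at 4 to 72 h and fell 3.36-fold (limma adjusted p = 0.0211). SLC17A9, which loads ATP into vesicles, was the fourth of the class to fall (-1.61).

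**Figure D4:**
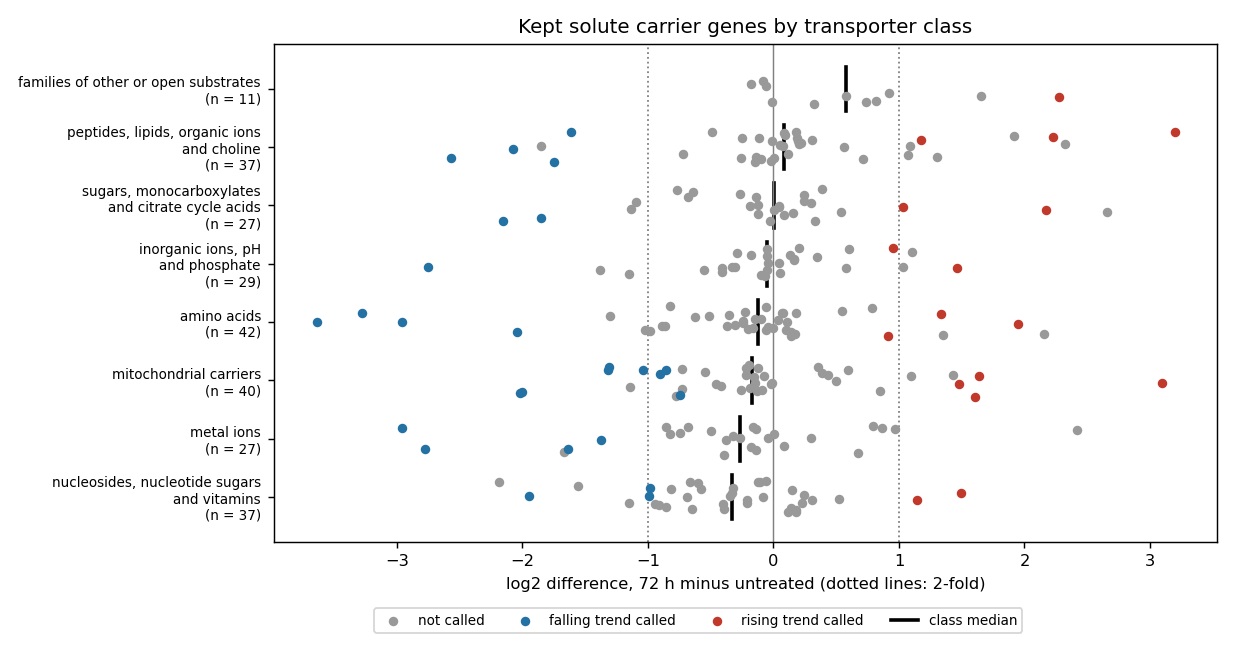
log2 difference between 72 h and untreated for each of the 250 kept carriers by transporter class, ordered by class median (black bar). Points are single genes, blue and red where the trend was called falling or rising, and dotted lines mark 2-fold. Class medians lie between -0.33 and 0.58, while single genes run from -3.64 to 3.20, and each class holds genes on both sides of 0.

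Carriers of sugars, monocarboxylates and citrate cycle acids, 27 kept, had 3 higher and 4 lower at 72 h, and 2 rose and 2 fell (median 0.01, with -0.56 after the shift without bioC). SLC2A5 (GLUT5), the fructose carrier, had the largest 4 h difference of any carrier, at 7.87 untreated and 9.98, 10.57, 10.76, 10.95 and 10.53 at 4 to 72 h. It was 2.10 up at 4 h and stayed between 10.53 and 10.95 from 12 h on. A line describes such a step poorly, and the trend was not called (limma adjusted p = 0.0564). Of its 4 kept probe sets, 3 were higher by 1.75 to 2.66 at 72 h and 1 by 0.04, with a mean of 1.72. SLC5A3 (SMIT1), the sodium-coupled importer of myo-inositol, was at 6.72 untreated and 7.33, 8.16, 8.72, 9.03 and 8.88 at 4 to 72 h. It climbed to 48 h and rose 4.49-fold (limma adjusted p = 0.0056), in all 4 kept probe sets, which differed by 1.44 as a mean. SLC16A9, a monocarboxylate carrier that rose from below the filter, was at least 1.77-fold higher.

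On the falling side, SLC5A6, which imports biotin and pantothenate and sits here by family number, was at 8.98 untreated and 8.61, 8.23, 8.46, 8.06 and 7.13 at 4 to 72 h, 3.61-fold lower (limma adjusted p = 0.0185). SLC2A4RG is counted by its symbol but encodes a regulator of the SLC2A4 gene and no carrier. It was at 8.37 untreated and 7.97, 7.65, 7.51, 6.95 and 6.22 at 4 to 72 h, 4.45-fold lower (limma adjusted p = 0.00351), or by -1.33 as the mean of its 4 probe sets. The lactate carriers SLC16A1 and SLC16A3 have no probe set of 1 gene in the annotation used and were not analysed here. SLC45A3 went from 4.67 to 3.47 at 4 h and 3.58 at 72 h, which is at least 2.01-fold lower. The 4 and 72 h values are both below the filter, so their order has no meaning.

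Families of other or open substrates, 11 kept, had 2 higher and 0 lower at 72 h, and 1 rose and 0 fell, with a median of 0.58 (0.01 with the shift without bioC). SLC67A1, long named SLC22A18, was at 4.66 untreated and 5.22, 5.01, 5.32, 5.61 and 6.94 at 4 to 72 h, 4.85-fold higher (limma adjusted p = 0.0211). SLC68A1 (TMEM180) was at 4.78 untreated and 4.48, 4.58, 4.68, 5.16 and 6.43 at 4 to 72 h, 3.15-fold higher on the 72 h array without a call. SLC66A1, which exports cationic amino acids from the lysosome, differed by 0.92. SLC61A1 (MFSD5), linked to molybdate uptake, was at 6.59 untreated and 7.62, 6.54, 7.06, 7.27 and 7.40 at 4 to 72 h. It was 2-fold higher at 4 h alone and lowest on the 0 and 12 h arrays, the division that the bioC control also shows.

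Some of the carriers that stood apart at 4 h did so again at 72 h. All 6 carriers lower at 4 h were also lower at 72 h, though SLC4A7 lay within 2-fold at 12, 24 and 48 h and SLC45A3 at 12 and 24 h, while of the 7 higher at 4 h 3 (SLC2A5, SLC48A1 and SLC25A44) were also higher at 72 h. Of all genes, 154 of 246 lower at 4 h were also lower at 72 h, and 180 of 236 higher were also higher. The difference between the directions was not tested. Of the 40 carriers 2-fold off at some time before 72 h, 11 were back within 2-fold at 72 h (27.5%; all genes 17.1%). SLC2A6 (GLUT6), a lysosomal hexose carrier, was at 5.55 untreated and 6.96, 5.97, 5.88, 5.63 and 5.93 at 4 to 72 h, and SLC45A4 at 4.99 untreated and 6.31, 5.36, 5.38, 4.65 and 5.23 at 4 to 72 h. With SLC35D1 and SLC61A1, both peaked at 4 h and lay within 1.5-fold of untreated at 12 h. The 4 and 0 h arrays differ in bioC level, and 12 h shares that of 0 h. With the shift without bioC 3 carriers were higher at 4 h, and with that on all controls 51.

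**Figure D5:**
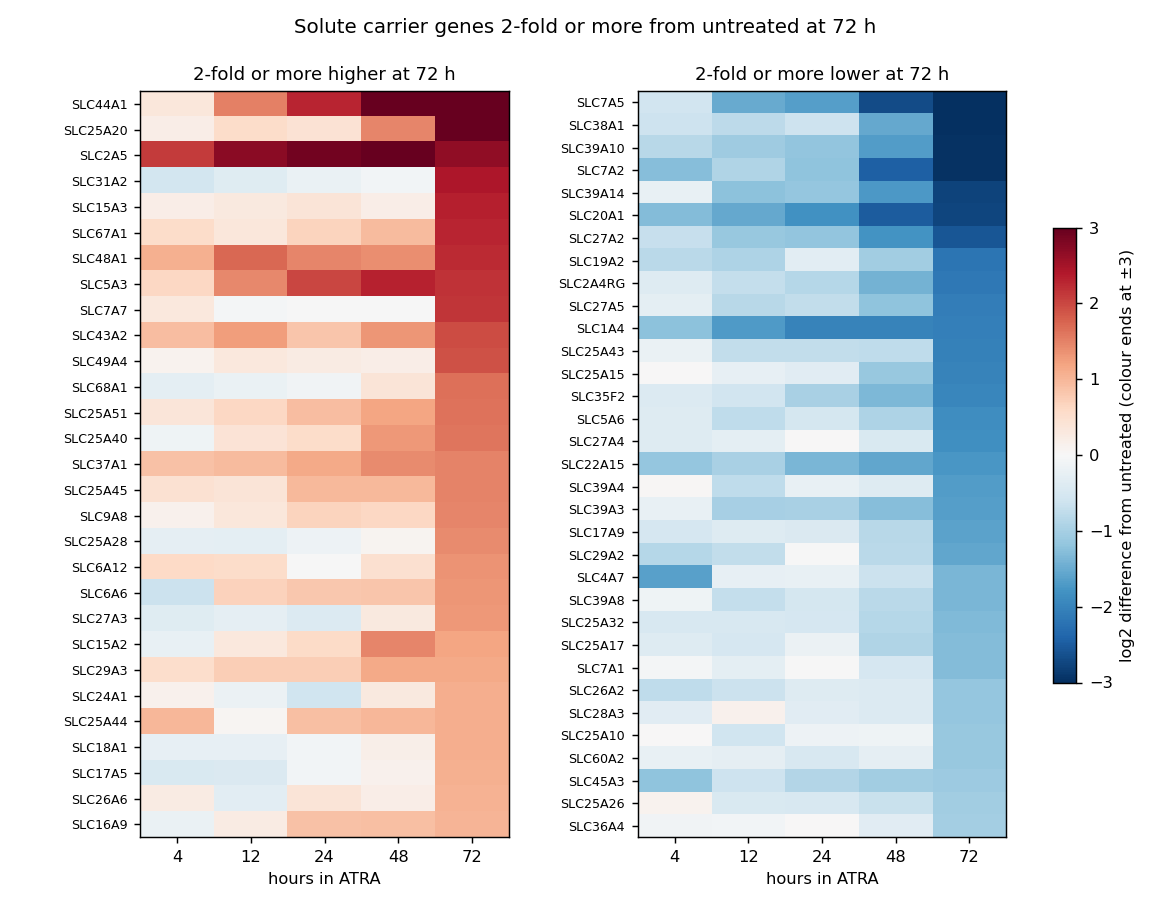
log2 difference from untreated at each time for the 29 carriers 2-fold or more higher (left) and the 33 lower (right) at 72 h, ordered by that difference, red above and blue below untreated, with colour ending at 3 and -3. SLC2A5, SLC44A1 and SLC5A3 are red well before 72 h, SLC31A2, SLC15A3 and SLC7A7 at 72 h alone, and most rows on the right darken at 48 or 72 h. SLC4A7 is darkest at 4 h.

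Carriers of different substrates first reached 2-fold above untreated at 72 h, 17 of the 29 higher there (58.6%, all genes 46.7%). Among those without a call were SLC31A2, SLC15A3, SLC7A7, SLC49A4, SLC68A1 and SLC25A28. Others that first reached 2-fold there, SLC9A8, SLC67A1, SLC16A9 and SLC25A45, were called rising. Of these, SLC16A9 was already at 0.88 at 24 h and 0.89 at 48 h, before 1.03 at 72 h. SLC25A45 was at 0.98, 0.97 and 1.48 at these times. In each case the crossing of the 2-fold line rests on the single 72 h array. The 28S control was high on that array and on those of 12 and 48 h. Whether the controls play a part was not tested.

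Transport genes outside the symbol rule moved in both directions too. Of 3 kept sodium pump subunits, which maintain the gradient that sodium-coupled carriers use, 2 fell and 0 rose. ATP1B1 was 4.88-fold lower at 72 h (limma adjusted p = 0.009), and ATP1B3 differed by -0.90. Of 5 kept organic anion carriers of the SLCO family, 2 rose and 1 fell. SLCO4C1 went from 2.59 to 5.73, and SLCO4A1 from 9.06 to 7.52. Of 19 kept carriers that belong to SLC families under other symbols, 1 rose and 4 fell, the risen one being the lysosomal cholesterol exporter NPC1 (1.05). SPNS3 (-1.70), SPNS2 (-1.48), a sphingosine 1-phosphate exporter, ANKH (-1.47), which controls pyrophosphate export, and MTCH2 (-1.11) fell. Of the 3 partner proteins of lactate and other carriers, EMB (0.84) and NPTN (0.88) rose, and BSG differed by -0.21.

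The filter separated carriers of near-equal level. Just inside it were SLC5A10, SLC26A1 and SLC6A18, with highest values of 3.67, 3.68 and 3.71. Just outside were SLC4A9, SLC26A11 and SLC4A3, at 3.65, 3.63 and 3.63. The 93 carriers not kept are not described further, and 2 of 57 families, SLC32 and SLC47, had no kept gene. Of the 250, 130 had several kept probe sets, and in 33 of these the sets differed in sign at 72 h. Among the named genes with such a split and a 2-fold difference were SLC38A1 and SLC29A2.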

How the data were processed

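Expression of NB4 cells was measured on 6 Affymetrix arrays, 1 per time, grouped by the time in the labels. The deposited values are log2 probe set levels that the authors made, and the submitters' processing notes name RMA. Its version, software and background method were not given in the sources used here. Because RMA equalises the arrays, a change common to most transcripts would not show. The number of arrays limits the precision.

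Of 54675 probe sets, 41091 were annotated to 1 gene, and symbols were brought up to date through Entrez identifiers in the RefSeq gene table of GRCh38.p14. Differences from the untreated array were counted at 2-fold, without p-values. Where untreated or 72 h cells lay below the filter, 3.66 took the place of the low value, and the fold is written as a lower bound. Slopes over time order came from limma 3.58.1 (R 4.3.3; lmFit, then eBayes using its intensity trend) on all 13594 genes, with Benjamini-Hochberg adjustment, and the script was tested on simulated data. Genes were named when among the 15 largest rises or falls at 72 h, the 8 at 4 h, the 5 at 12, 24 or 48 h, the 4 largest 72 h differences of a class or the 5 smallest trend p-values each way, or when on a list of carriers of known roles. Others were named, after their values were seen, to complete counts. The members, lists and naming rule were chosen with earlier results of these data known. Alternatives were cyclic loess, shifts on spiked controls, other probe set rules and filters, the 4 h array as baseline, arrays left out, the bioC level as a covariate, and log2 hours in place of time order.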

Additional observations from a re-analysis of the deposited data

How the results depend on the processing

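Counts of carriers 2-fold off were most open to scaling. With the shift on all hybridisation controls and that without bioC in turn, higher carriers numbered 51 and 3 at 4 h, 73 and 3 at 24 h, 121 and 7 at 48 h, and 55 and 14 at 72 h. Lower carriers numbered 0 and 20 at 4 h, 14 and 10 at 12 h, 1 and 29 at 24 h, 4 and 36 at 48 h, and 18 and 69 at 72 h. With the mean of a gene's probe sets 2 were lower at 4 h, 4 higher at 24 h and 7 higher at 48 h. Against the 4 h array 2 were lower at 24 h, and 9 higher and 12 lower at 48 h. Against that array 9 named carriers changed sign at 72 h, among them SLC45A3 (0.11, from 2 values below the filter) and SLC4A7 (0.26), both 2-fold lower against untreated, and SLC2A6 (-1.03) and SLC45A4 (-1.08). The trend calls were 20 rising and 1 falling with the shift on all controls, 9 and 54 with that without bioC, 2 and 4 on the 4 arrays of 1 bioC level, and 9 and 12 over log2 hours. Leaving out arrays singly gave 8 to 17 rising and 13 to 26 falling, and the bioC covariate 12 and 23. Of the 64 carriers named by rule, 42 had the same sign and side of the 2-fold line at 72 h with the shift on all controls, 51 with that without bioC and 56 with cyclic loess. The sign changed in 11, 2 and 3, of which 0 were 2-fold off as reported. No paired analysis was possible because no label gives a replicate number to more than 1 sample per time. Depth does not apply to arrays, and carriers near 3.66 have signal too low for a difference to be read.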
